A study of Homo sapiens with 6 samples.

Results

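The accessibility of chromatin at 8 delta protocadherin genes was examined in RKO cells with and without low replication stress. They were PCDH7, PCDH8, PCDH9, PCDH10, PCDH17, PCDH18, PCDH19 and PCDH20, 8 of the 19970 protein-coding genes placed on the same peak lists. A peak was counted as a body peak when its midpoint lay in the RefSeq gene body, and as a flank peak when it lay outside the body and within 500 kb of it. The 8 loci held 117 of the 102770 regions obtained by merging overlapping peaks of all samples, 19 of them in gene bodies and 98 in flanks.

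RKO is a colon cancer cell line. All 6 samples were ATAC-seq libraries of RKO cells, in which the Tn5 transposase inserts adapters preferentially into accessible DNA. Of these, 3 samples came from cells treated with 0.2 µM aphidicolin (APH) for 16 h, an inhibitor of the replicative DNA polymerases, and 3 from cells treated with DMSO, the solvent control. The study describes independent experiments, while the sample labels do not say which samples were made together.

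Delta protocadherins are single-pass adhesion molecules with cadherin repeats outside the cell. They are best known from the nervous system, where they act in neurite growth, cell sorting and synapse formation. They are not part of the clustered protocadherin arrays, and several of them lie alone in long stretches poor in other genes. PCDH7 and PCDH9 belong to the delta1 group, which also holds PCDH1 and PCDH11X. PCDH8, PCDH10, PCDH17, PCDH18 and PCDH19 form the delta2 group, and PCDH20 is a related solitary member. Several delta2 genes and PCDH20 are known as targets of promoter methylation in tumours.

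Between 64511 and 84510 peaks were listed per sample. The signal of a peak, its value below, is the mean coverage over the peak, and its mean over all peaks was 78.3, 85.2 and 83.1 in the DMSO samples and 69.4, 73.0 and 71.0 in the APH samples, without overlap. Read depth is unknown, so no counting interval is given, and a difference in depth between samples cannot be told apart from a difference in the values. Of the epithelial marker genes, 3 of 8 had a peak within 1 kb of the start in all 6 samples (CDX2, EPCAM and KRT18), KRT8 had one in 5 samples, and CDH1, CDX1, KRT19 and VIL1 had none. No start of the 4 blood markers had a peak, while those of the fibroblast markers COL1A1 and COL1A2 did in all 6 samples and that of DCN did not.

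The gene starts differed among the 8 genes. Only PCDH18 had a peak within 1 kb of its start, and it had one in all 6 samples. The other 7 starts had no peak in any sample, in DMSO or in APH. Over 19626 protein-coding gene starts, 38.1% had no peak in any sample and 57.1% had one in all 6. The promoters of PCDH18, PCDH8 and PCDH19 are shown because they include the accessible start and the 2 closed starts that have accessible regions nearest to them. Each sequence is 300 bases from RefSeq (GRCh38.p14), on the strand of the gene, from 250 bases before the start to 50 bases of the transcript, with CG dinucleotides in capitals. They lie at chr4:137532445-137532744 (PCDH18), chr13:52848591-52848890 (PCDH8) and chrX:100410224-100410523 (PCDH19), all on the minus strand.
PCDH18: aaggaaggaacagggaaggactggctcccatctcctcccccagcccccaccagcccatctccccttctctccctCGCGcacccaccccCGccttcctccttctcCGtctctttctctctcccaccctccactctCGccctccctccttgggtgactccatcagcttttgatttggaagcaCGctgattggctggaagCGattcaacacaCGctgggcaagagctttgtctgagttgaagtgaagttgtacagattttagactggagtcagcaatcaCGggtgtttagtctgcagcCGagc
PCDH8: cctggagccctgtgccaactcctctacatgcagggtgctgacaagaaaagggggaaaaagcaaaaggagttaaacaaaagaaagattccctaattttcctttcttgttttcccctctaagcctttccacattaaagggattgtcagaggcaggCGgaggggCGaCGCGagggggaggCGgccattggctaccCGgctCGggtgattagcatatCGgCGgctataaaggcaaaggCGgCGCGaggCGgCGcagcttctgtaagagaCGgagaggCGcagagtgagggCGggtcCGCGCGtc
PCDH19: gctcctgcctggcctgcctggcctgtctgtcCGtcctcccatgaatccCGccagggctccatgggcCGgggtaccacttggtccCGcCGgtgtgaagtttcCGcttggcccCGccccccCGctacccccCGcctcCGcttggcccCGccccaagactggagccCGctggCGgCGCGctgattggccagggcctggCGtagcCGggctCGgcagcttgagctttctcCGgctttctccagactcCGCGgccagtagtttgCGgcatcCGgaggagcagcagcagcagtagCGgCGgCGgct

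The PCDH18 promoter, the one with a peak, held the fewest CG dinucleotides of the 6 matched members, 10. PCDH17 had 11, PCDH7 16, PCDH8 20, PCDH9 20 and PCDH19 26, against a median of 22 over 15812 coding promoters. PCDH10 and PCDH20 were not matched. Across all coding promoters peaks were more frequent with more CG dinucleotides up to the class of 20 to 29, and levelled off above it. A peak in all 6 samples was found at 49.9% of the starts with 10 to 14 CG dinucleotides, at 69.4% of those with 15 to 19 at 80.4% of those with 20 to 29 and at 79.4% of those with 30 or more. PCDH8, PCDH9 and PCDH19 belonged to the class of 20 to 29, in which 17.5% of the starts had no peak in any sample. The G+C content was 57.0% at PCDH18 and lay between 52.7% at PCDH17 and 71.0% at PCDH19.

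**Figure D1:**
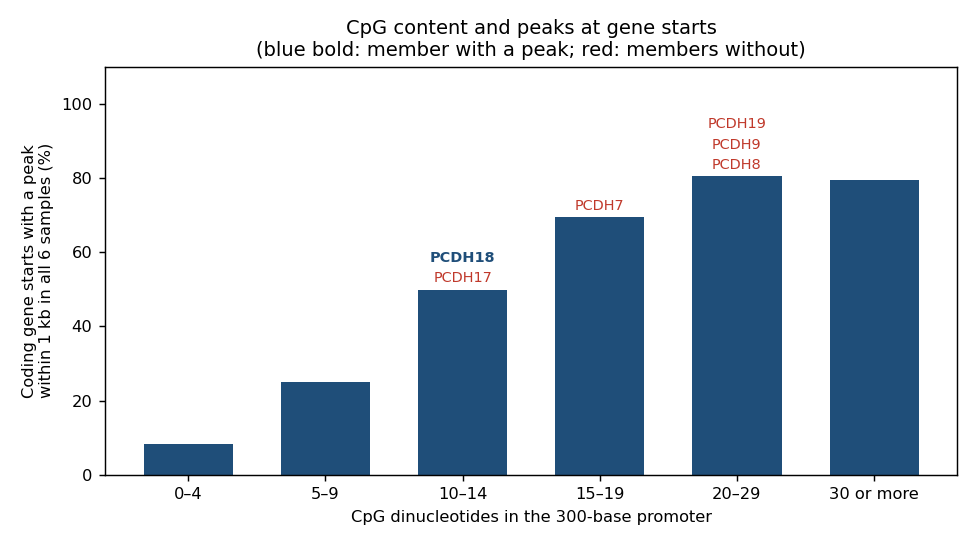
Bars show the percent of protein-coding gene starts with an ATAC-seq peak within 1 kb in all 6 samples, by the number of CpG dinucleotides in the 300-base promoter. Of the 6 members with a promoter sequence, PCDH18 (blue, bold) had a peak with 10 CpG, and the 5 members in red had none, 3 of them in the class where 80.4% of all starts had one.

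Short motifs were counted in the same promoters on both strands, and matches of different motifs may overlap. GGGCGG, the core of a GC box, occurred 2 times at PCDH9, once at PCDH8 and 2 times at PCDH19, and not at PCDH7, PCDH17 or PCDH18. It was found in 58.5% of all coding promoters. CCCTC occurred 7 times at PCDH7, 9 times at PCDH9, 4 times at PCDH8, 3 times at PCDH17, 4 times at PCDH18 and not at PCDH19, against a share of 76.6% of promoters with at least 1 match. CANNTG, the E-box, was present once each at PCDH17 and PCDH19 and is held by 64.5% of promoters. TGANTCA, which AP-1 binds, was found in none of the 6 and in 5.76% of all promoters.

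The PCDH18 peak covered most of the promoter printed above. It reached from between 238 and 300 bp upstream of the start to between 213 and 363 bp downstream. Its value was 45.7, 58.9 and 60.1 in the DMSO samples and 56.8, 51.7 and 50.1 in the APH samples. The means were 54.9 ± 7.99 and 52.9 ± 3.46 (SD, n = 3), and the groups overlapped. In the fit over all shared regions the log2 fold change was -0.05 ± 0.21 (SE, limma adjusted p = 0.958). The peak was weak for a gene start. Of the 11203 starts with a peak in every sample, 95.0% had a higher mean value, and their median was 149. The midpoint fell between 36 bp upstream and 41 bp downstream of the start, so the same peak was counted in the gene body in DMSO 1 and in the flank in the other 5 samples.

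PCDH8 and PCDH19 had accessible chromatin close to their starts but not at them. The nearest peak to the PCDH8 start, that of paraxial protocadherin, lay between 1.92 and 2.0 kb away in all 6 samples. It belonged to a broad upstream region at chr13:52850562-52851805, with values of 97.3, 89.0 and 99.7 in DMSO and 77.1, 75.9 and 81.6 in APH. All 3 APH samples lay below all 3 DMSO samples, with a log2 fold change of -0.28 that did not pass the adjustment (limma adjusted p = 0.491). Of all regions with a peak in every sample, 14.4% separated in this direction and 4.21% in the other. At PCDH19, mutated in an X-linked epilepsy, the nearest peak lay between 2.95 and 2.99 kb from the start in every sample. The distance was 5.58 to 5.62 kb at PCDH7. PCDH9 had a peak at 5.79 to 5.85 kb in 5 samples, while in APH 1 the nearest was 68.9 kb away. The nearest peak to PCDH17 lay between 3.89 and 6.82 kb in 5 samples and at 316 kb in DMSO 3. PCDH10 and PCDH20 were the most isolated, with the nearest peak of PCDH20 at 129 kb in 5 samples and at 50.5 kb in APH 2. That of PCDH10 lay at 171 kb in 4 samples, at 253 kb in APH 3 and at 627 kb in DMSO 3.

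The surroundings of the 8 genes were not all alike. PCDH9, PCDH10, PCDH18 and PCDH20 had no other protein-coding gene in the body or within 500 kb of it. PCDH7 had 1, and PCDH17 had 5, all copies of PRR20, a family of near-identical genes, for which counts are uncertain since only uniquely mapped reads were kept. PCDH8 and PCDH19 had 7 each, against a median of 13 over all coding genes. The neighbours of PCDH8 included VPS36, a subunit of an endosomal sorting complex, CKAP2, a protein of the mitotic spindle, and SUGT1, a co-chaperone of HSP90. Those of PCDH19 included CSTF2, which acts in the cleavage of transcripts at their 3′ end, TSPAN6 and SRPX2. Over the 6 samples the flanks held a mean of 23.7 peaks per Mb at PCDH8 and 15.8 at PCDH19, between 3.17 and 8.83 at PCDH7, PCDH9, PCDH17, PCDH18 and PCDH20, and 1.33 at PCDH10. The median over coding genes was 40.7 peaks per Mb, and 99.5% of coding genes had more flank peaks than PCDH10.

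Summed over the 8 loci, DMSO samples had 69, 86 and 60 peaks and APH samples 91, 95 and 72. DMSO 2 lay above APH 3, so the groups overlapped. As a percent of all peaks of the sample, the loci held 0.105, 0.111 and 0.0930 in DMSO and 0.114, 0.112 and 0.103 in APH. The peaks were weak, with a median value of 34.0 to 36.2 against 47.0 to 53.8 over all peaks of the same samples. Between 66.3% and 75.4% of them lay below the median of their sample.

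In the gene bodies there were 10, 11 and 9 peaks in DMSO and 13, 15 and 8 in APH, the last being the lowest of all samples. The means were 10 ± 1.0 and 12 ± 3.6 (SD, n = 3). In the flanks there were 59, 75 and 51 peaks in DMSO and 78, 80 and 64 in APH, with means of 61.7 ± 12.2 and 74.0 ± 8.72. Both ratios of APH to DMSO were 1.20. With the same number of peaks taken per sample, the 64511 strongest, the body ratio turned to 0.75 (9.33 ± 0.577 peaks in DMSO and 7 ± 1.0 in APH, every APH sample being lower), and the flanks had 55.3 ± 3.79 and 54.7 ± 2.31 peaks, with overlap. The flank share of all peaks was 0.0896, 0.0972 and 0.0791% in DMSO and 0.0977, 0.0947 and 0.0913% in APH. The groups overlapped, with DMSO 2 above APH 2 and APH 3. The number of body peaks per flank peak was 0.164 ± 0.0156 in DMSO and 0.160 ± 0.0318 in APH, a difference smaller than the spread between replicates. At equal peak numbers it was 0.169 ± 0.00977 and 0.128 ± 0.0187, all APH samples being lower, while among peaks with values of at least 49.7, the median over the samples, it was 0.0794 ± 0.0286 and 0.116 ± 0.0559, with overlap. Per Mb, the bodies had 6.04 ± 0.604 and 7.24 ± 2.18 peaks and the flanks 7.71 ± 1.53 and 9.25 ± 1.09, the PCDH8 and PCDH19 flanks, which hold several other genes, included. Taken alone, the PCDH7 body had 5.47 ± 2.71 peaks per Mb in DMSO and 7.04 ± 4.69 in APH, against 4.33 ± 0.577 and 5.67 ± 0.577 in its flanks. The PCDH9 body had 5.75 ± 1.25 and 7.91 ± 1.25, against 3.00 ± 1.73 and 4.67 ± 2.52 in its flanks, so the mean density was higher in the body than in the flanks at both of these genes, at PCDH7 by less than the SD of the body. At PCDH19 the order turned, with 16.9 ± 0 in the body and 15 ± 1.0 in the flanks in DMSO and 14.05 ± 4.87 and 16.7 ± 0.577 in APH. Sums over chosen genes are given without a p.

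**Figure D2:**
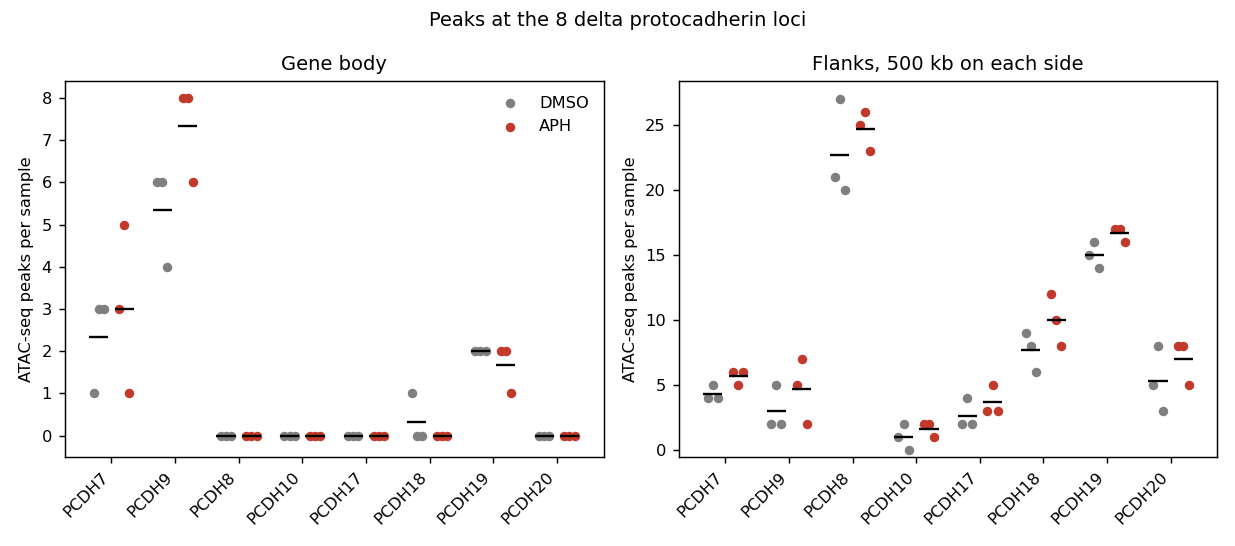
Points show the number of ATAC-seq peaks in each sample in the gene body (left) and in the flanks of 500 kb on each side (right) of the 8 genes, DMSO in grey and APH in red, with bars at the mean of 3 samples. PCDH9 had the most body peaks, 4 to 8, and PCDH8 the most flank peaks, 20 to 27, and the conditions overlapped or shared a value at every locus.

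The mean value of the body peaks was 37.1, 39.1 and 31.9 in DMSO and 35.1, 34.7 and 38.4 in APH, with overlap. Divided by the mean over all peaks of the sample, which was lower under APH, it was 0.474, 0.459 and 0.385 in DMSO and 0.506, 0.475 and 0.541 in APH. The lowest APH sample was just above the highest DMSO sample, and the ratio of the means was 1.16. The groups overlapped when PCDH9 (ratio 1.26) or PCDH19 (ratio 1.10) was left out. When peaks with values under 49.7 were left out, the relative value was lower under APH (0.499 ± 0.0118) than in DMSO (0.553 ± 0.0897), with overlap. Flank peaks had a mean value of 55.0, 61.1 and 61.9 in DMSO and 49.96, 54.5 and 50.1 in APH, all APH samples being lower. Relative to all peaks the flanks were at 0.722 ± 0.0217 and 0.724 ± 0.0213 (SD, n = 3), which overlapped.

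Taking each gene alone, no member passed an adjusted p of 0.05 in any of the 5 fits over all genes. The fits compared the body share and the flank share of peaks, the balance of body over flank, and the relative values of body and flank peaks. For the body share, PCDH7, PCDH9 and PCDH19 had a mean of at least 1 peak and were tested. PCDH8, PCDH10, PCDH17 and PCDH20 had no body peak in any sample, and PCDH18 only the one at its start. For the flank share, PCDH7, PCDH8, PCDH18, PCDH19 and PCDH20 had a mean of at least 5 peaks, and PCDH9, PCDH10 and PCDH17 did not.

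PCDH7 and PCDH9, the delta1 genes among the 8 and both long, held most of the body peaks. PCDH9, the largest at 928 kb (chr13:66302834-67230336), had 6, 6 and 4 body peaks in DMSO and 8, 8 and 6 in APH. APH 3 equalled the highest DMSO samples. The log2 fold change of the share was 0.23 ± 0.15 (SE, limma adjusted p = 0.604). The median over all tested genes was -0.18, which is also what unchanged peak numbers give, since the mean total of peaks was higher under APH. PCDH7 (chr4:30720369-31146800) had 1, 3 and 3 body peaks in DMSO and 3, 5 and 1 in APH, with a log2 fold change of 0.02 ± 0.32 (adjusted p = 0.964). The flanks of PCDH9 had 2, 5 and 2 peaks in DMSO and 5, 7 and 2 in APH. Those of PCDH7 had 4, 5 and 4 in DMSO and 6, 5 and 6 in APH, where APH 2 equalled DMSO 2.

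Of the delta2 genes, PCDH19 (chrX:100291644-100410273) was the one with body peaks away from its start, 2 in every DMSO sample and 2, 2 and 1 in APH. Its share of all peaks was 0.00304, 0.00259 and 0.00310% in DMSO and 0.00251, 0.00237 and 0.00143% in APH, without overlap. The peak numbers were equal in 5 of the 6 samples, so in those 5 samples the shares differed through the totals of peaks alone. The log2 fold change was -0.37 ± 0.21 (limma adjusted p = 0.604). In this fit 0.00803% of genes passed the adjustment, 2.59% had a share above DMSO in all APH samples and 7.88% below it, and the 1 member of 3 that separated went with the more frequent direction. The balance of body over flank separated downwards at PCDH19 as well (log2 fold change -0.34 ± 0.18, adjusted p = 0.717) and overlapped at PCDH7 (-0.13 ± 0.44, adjusted p = 0.942). For the balance 0.0% of genes passed, with 282 higher and 604 lower at an unadjusted p under 0.05, and 3.07% separated upwards and 8.1% downwards.

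The largest difference in the values of body peaks among the tested members was at PCDH19. Relative to all peaks they were 0.389, 0.436 and 0.283 in DMSO and 0.568, 0.552 and 0.480 in APH, with every APH sample above every DMSO sample. The log2 fold change was 0.55 ± 0.18 (limma adjusted p = 0.426). It rested on 1 of the 2 body regions. The other, 30.7 kb from the start, had values of 28.3, 28.1 and 20.7 in DMSO and 24.2 and 22.1 in APH 1 and APH 2, and no peak in APH 3, which is therefore represented by the stronger region alone. As deposited, the mean values were 30.5, 37.2 and 23.5 in DMSO and 39.4, 40.3 and 34.1 in APH, where APH 3 lay below DMSO 2. PCDH7 had a log2 fold change of 0.28 ± 0.24 (adjusted p = 0.684) and PCDH9 one of 0.09 ± 0.11 (adjusted p = 0.767). Of all genes tested for the body value, 0.0% passed, 939 being higher and 304 lower at an unadjusted p under 0.05. Separation upwards was found in 13.2% and downwards in 4.41%.

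The flank share of no tested member separated between conditions. The log2 fold changes were 0.15 at PCDH7, -0.05 at PCDH8, 0.17 at PCDH18, -0.03 at PCDH19 and 0.21 at PCDH20, with adjusted p from 0.687 to 0.923 and a median of -0.04 over all genes. In that fit 0.0458% of genes passed, 5.02% separated upwards and 12.2% downwards. PCDH8 had 21, 27 and 20 flank peaks in DMSO and 25, 26 and 23 in APH. PCDH19 had 15, 16 and 14 in DMSO and 17, 17 and 16 in APH, where APH 3 equalled DMSO 2. PCDH18 had 9, 8 and 6 in DMSO and 12, 10 and 8 in APH, and PCDH20 had 5, 8 and 3 in DMSO and 8, 8 and 5 in APH. PCDH10 had 1, 2 and 0 and PCDH17 2, 4 and 2 flank peaks in DMSO, against 2, 2 and 1 and 3, 5 and 3 in APH. At every locus the mean number was higher under APH, as was the total over the genome.

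Among the flank values PCDH20 had the largest difference. Relative to all peaks its flank peaks were at 0.369, 0.397 and 0.338 in DMSO and 0.472, 0.5001 and 0.397 in APH, the lowest APH sample lying just below the highest DMSO sample. The log2 fold change was 0.31 ± 0.11 (limma adjusted p = 0.469). As deposited the values were 28.9, 33.9 and 28.1 in DMSO and 32.8, 36.5 and 28.2 in APH, with overlap. The other tested members had log2 fold changes of at most 0.12, all with adjusted p of at least 0.684. Of all genes 0.0102% passed in this fit, 8.61% separated upwards and 5.95% downwards, and no member separated.

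Single regions were compared as deposited where every sample had a peak, which held for 53 of the 117 (45.3%), against 48.8% of all regions. They made up 15 of 20 regions at PCDH19 and 19 of 28 at PCDH8, and 0 of 3 at PCDH10. The median log2 fold change of the 53 regions was -0.04, against -0.06 over all 50148 shared regions, with 26 higher and 27 lower under APH. None passed the adjustment (0.0% of all regions did, with 1234 higher and 5062 lower at an unadjusted p under 0.05), and 3 of the 53 had an unadjusted p under 0.05. Separation was upwards in 3 and downwards in 5, against 4.21% and 14.4% of all regions.

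The smallest p belonged to a region in the PCDH9 body, 296 kb from the start, at chr13:66933927-66934306. Its values were 26.3, 30.4 and 24.4 in DMSO and 38.0, 46.8 and 40.2 in APH. Every APH sample lay above every DMSO sample, with a log2 fold change of 0.61 ± 0.20 (limma adjusted p = 0.295). The strongest region of the same body, at chr13:66659967-66660564, went the other way, with 79.2, 87.2 and 69.9 in DMSO and 54.7, 70.0 and 56.4 in APH. The groups overlapped by a small margin, with a log2 fold change of -0.38 ± 0.19 (adjusted p = 0.427). Both were chosen for their small p in the direction they show, and neither passed the threshold.

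Of the other regions, that in the PCDH19 body, 41.9 kb from the start, had values of 32.6, 46.3 and 26.4 in DMSO and 54.6, 58.5 and 34.1 in APH, with overlap and a log2 fold change of 0.47 ± 0.26 (adjusted p = 0.471). A flank region 142 kb upstream of PCDH18 had APH values above all DMSO values (24.2, 31.4 and 29.2 against 33.0, 39.6 and 36.4), with a log2 fold change of 0.35 ± 0.20 (adjusted p = 0.490). The 2 lower regions of smallest p in the loci were starts of neighbouring genes. At SUGT1, 196 kb downstream of PCDH8, values were 283, 302 and 332 in DMSO and 219, 248 and 243 in APH, with a log2 fold change of -0.37 ± 0.13 (adjusted p = 0.296). At VPS36 they were 188, 207 and 214 in DMSO and 164, 167 and 171 in APH, with a log2 fold change of -0.28 ± 0.13 (adjusted p = 0.385). Of the 14 shared regions within 1 kb of a gene start 11 had a log2 fold change below 0 (median log2 fold change -0.16), and of the 39 others 16 did (median 0.09). Under quantile normalization the log2 fold changes were -0.13 at SUGT1 and -0.08 at VPS36, the counts became 10 of 14 and 17 of 39, and the medians -0.06 and 0.03. The difference between these classes was not tested. Of all 50148 shared regions 29747 had a log2 fold change below 0, and those at gene starts were not counted apart.

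**Figure D3:**
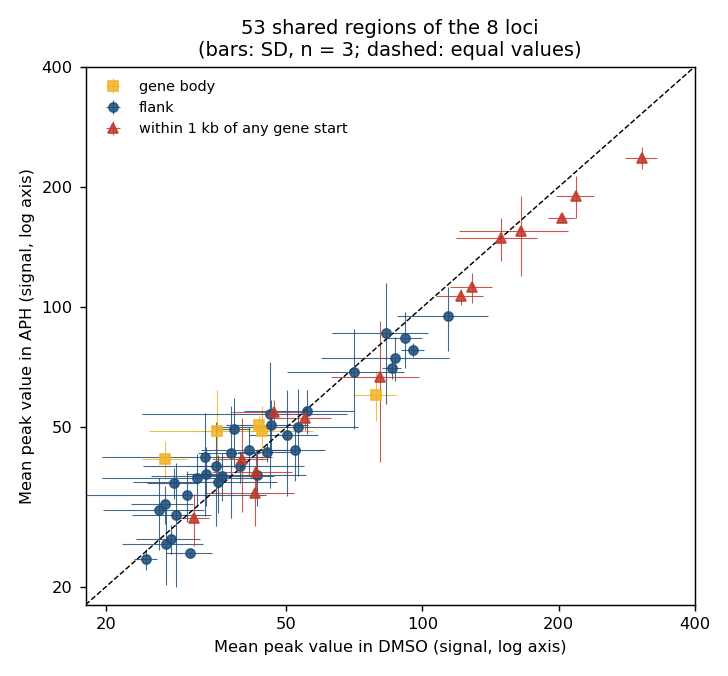
Each point is 1 of the 53 regions found in every sample, with the mean peak value in DMSO (x axis) and APH (y axis) on log axes and bars of 1 SD (n = 3). Yellow squares are body regions, blue circles flank regions and red triangles regions within 1 kb of any gene start, that of PCDH18 included, and 12 of the 14 triangles lie below the line of equal values.

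Regions seen in only one condition were mostly APH regions. Of the 117 regions 30 had peaks in APH samples only (25.6%, against 18.5% of all regions) and 8 in DMSO samples only (6.84%, against 7.03%). In the gene bodies 7 of 19 were APH only and 0 were DMSO only. Most of the one-condition regions rested on a single sample, as 30 of the 117 regions were found in 1 sample. With the same number of peaks taken per sample, the 64511 strongest, 85 regions remained, of which 10 were APH only and 11 DMSO only (11.8% and 12.9%, against 10.7% and 11.8% of all regions so defined). In the bodies the counts were then 1 and 3 of 13. The excess of APH-only regions was thus not present at equal peak numbers.

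Of the 117 regions, 4 had a peak in all 3 APH samples and in no DMSO sample, and 0 showed the reverse. Of all 102770 regions, 1136 and 189 did. This class was not counted at equal peak numbers. In the PCDH9 body, 564 kb from the start (chr13:66666048-66666333), the APH values were 20.4, 21.3 and 25.5. At 28.7 kb beyond the end of PCDH7 (chr4:31175316-31175603) they were 19.3, 22.1 and 19.9. A region 341 kb upstream of PCDH8 (chr13:53189234-53189524) had 32.3, 35.6 and 24.4, and one 155 kb downstream of the PCDH20 start (chr13:61260525-61260822) had 27.4, 22.5 and 22.9. All 4 were weak, since the lowest value of any peak was 15.1 and the medians of all peaks were at 47.0 or above. A signal just under the calling threshold in DMSO cannot be told apart from its absence, because no value is listed where no peak was called.

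**Figure D4:**
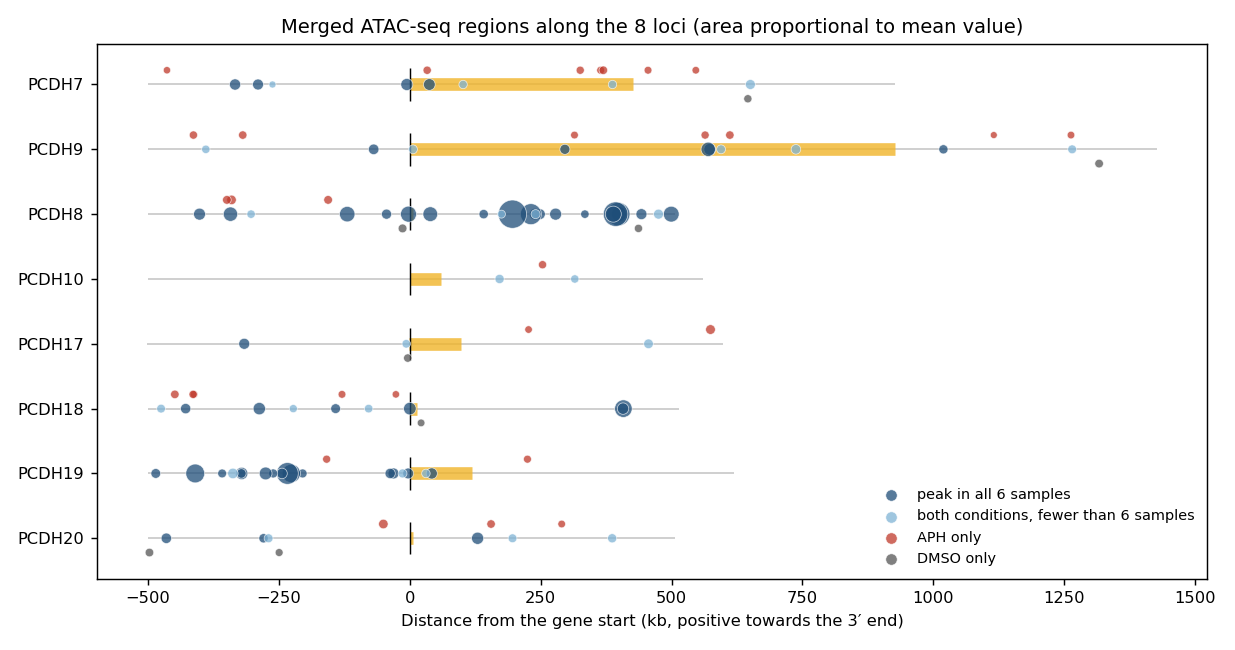
Merged regions along the 8 loci are placed by their distance from the gene start in kb, with the gene body in yellow, a grey line for the window and circle area proportional to the mean value. Dark blue circles have a peak in all 6 samples (53 regions), light blue in both conditions, red in APH only (30) and grey in DMSO only (8); the last 2 kinds are shifted up and down for visibility.

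The positions in the loci differed by gene. At PCDH7 the strongest regions lay 5.78 kb upstream of the start (mean value 49.0) and 37.3 kb inside the gene (46.5). At PCDH9 they were grouped about 570 kb into the gene, where 2 regions with a peak in every sample lay less than 3 kb apart. PCDH18 had its strongest region 408 kb downstream of the start, inside the non-coding gene LINC02511, with values of 102, 143 and 95.7 in DMSO and 88.3, 114 and 82.1 in APH. At PCDH17 the strongest, with a mean of 40.8, lay at SLC25A5P4, a pseudogene, where the values are uncertain to the extent that reads match its parent gene. PCDH20 had its strongest 129 kb downstream of the start, with values of 36.3, 71.4 and 30.6 in DMSO and 52.9, 73.7 and 36.0 in APH. None of the regions of PCDH10 was found in more than 4 samples, and the strongest, 171 kb downstream of the start, had a mean of 28.6. At PCDH19 the strongest was at the start of SRPX2, with a mean of 160.

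Genes that act with delta protocadherins had accessible starts, as had most coding genes (57.1% of 19626 starts had a peak in all 6 samples). All 10 of the intracellular partners examined, among them NCKAP1, CYFIP1, CYFIP2, WASF1, ABI1 and BRK1 of the WAVE complex that drives branched actin, had a peak within 1 kb of the start in all 6 samples. Of 4 other protocadherins, PCDH1 and PCDH11X of delta1 included, PCDH15 did, with values between 22.9 and 39.4. PCDH12 had a peak in APH 1 only, and PCDH1 and PCDH11X had none. The 5 cadherin genes of the 5p14 gene desert, CDH6, CDH9, CDH10, CDH12 and CDH18, had none, like 7 of the 8 genes described here. No gene of these lists passed the adjustment in any fit of shares, balance or values. The smallest adjusted p was 0.340, for the body share of WASF1 (log2 fold change 0.88 ± 0.24), with overlapping groups.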

How the data were processed

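The peak lists came from 6 ATAC-seq samples of RKO cells, 3 per condition, grouped by the treatment in their labels. For each sample the authors deposited peak positions with a signal, the mean coverage over the peak, from reads lengthened to 200 bp and binned every 32 nt. Reads were aligned with BWA (0.7.12) to hg38, per the labels' processing notes, uniquely mapped pairs were kept, duplicates and blacklisted peaks were removed, and peaks were called per sample with MACS2 (2.1.0) without a control. No shift of the reads to the cutting site is stated. The sources used here do not say whether libraries were reduced to equal read numbers, or the signal scaled to library size. Read depth is unknown, and weaker coverage lowers both the values and the number of peaks called. The files hold 0 unused columns of sample values.

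Gene bodies and promoters came from RefSeq (GRCh38.p14). For genes without a listed promoter, PCDH10 and PCDH20 included, the strand came from GENCODE by symbol and the end of the gene served as the start. This also held for CDH6, PPP1CA and most marker genes, among them CDH1, CDX1, KRT19 and VIL1. The start used by the cells may lie elsewhere at these genes. A genome of the peaks' build, and the exon structure, were not used here. Body and flank peaks were counted for 19970 protein-coding genes of chromosomes 1 to 22 and X. Regions were made by merging peaks that shared 1 bp or more. The 6 fits used limma (3.58.1) with an intensity trend and Benjamini-Hochberg adjustment over all features at 0.05. They were made on log2 shares of peaks with a pseudocount of 1 (a mean of at least 1 body or 5 flank peaks), on the log2 ratio of body to flank, on log2 mean values relative to all peaks of the sample (at least 1 body or 3 flank peaks in every sample), and on log2(value + 1) as deposited for the shared regions. A fold change with a pseudocount understates that of low values. Groups are called separated when every sample of one lies above every sample of the other. Sums over the 8 loci have no test, and 3 samples against 3 cannot give an exact permutation p below 0.1. The fits were checked on simulated data. As separate cultures are not named in the labels, p-values measure the spread between these samples.

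The text names the 8 members, the strongest region of each body and flank, regions at the members' starts, the 3 regions of smallest p in each direction, the 3 genes whose share was most like that of the loci, and the related genes by counts. The upstream region of PCDH8, the regions found in APH alone and WASF1 were named after their values were seen. The members and lists were chosen with earlier results of these data known. Alternatives covered the flank size, equal peak numbers, stronger peaks, flank peaks outside genes, filters, pseudocounts, centring, quantile normalization, overlap, leaving out each replicate and a replicate block. Python 3.11.15 (numpy 2.4.6, pandas 2.3.3, scipy 1.17.1, matplotlib 3.10.9) and R 4.3.3 were used.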

Additional observations from a re-analysis of the deposited data

How the results depend on the processing

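No member was called in the analyses as reported, and among 290 alternative values of members and named regions 31 changed sign, none of them where the groups had been separated, and 5 passed the threshold. PCDH19 passed for the body share with equal peak numbers (log2 fold change -0.58, limma adjusted p = 6.43e-08), from counts of 2 in each DMSO and 1 in each APH sample, which leave no spread. The flank value of PCDH8 passed as deposited (-0.21, adjusted p = 0.0137), as did 12933 of the 19690 genes in that fit. The other 3 passed under the replicate block: the PCDH9 body region 296 kb from the start (adjusted p = 0.0204) and the starts of SUGT1 (0.00956) and VPS36 (0.0488). Deviations of the same-numbered samples 1, 2 and 3 correlated at -0.01, 0.48 and 0.52 over regions and 0.06, 0.33 and 0.45 over flank shares. Pairs 2 and 3 thus deviated together and pair 1 did not, and DMSO 1 did not correlate best with its own number over regions. These values do not settle whether the numbers mark pairs, and the fits as reported did not use them as pairs. With the replicate block the calls over all genes were 4 for the body share, 2863 for the flank share, 93 for the flank value and 6603 for regions, and the other calls did not change by over 1.5 times.

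Over all genes the body share had 1 call, with 105 when centred, 120 with equal peak numbers, 31 with peaks at or above the median value, 0 without the filter, 44, 15 and 6 without APH 1, 2 and 3 and 112, 16 and 166 without DMSO 1, 2 and 3. The flank share had 9, with 29 at equal peak numbers, 18 at 1 Mb, 32 at 250 kb, 0 outside genes, 1 with peaks at or above the median value, 0, 2 and 341 without APH 1, 2 and 3 and 16, 204 and 3 without DMSO 1, 2 and 3. The balance had 0, with 1 at 1 Mb, 1 with a pseudocount of 0.5 and 0 to 1 without one replicate (1 without DMSO 3). The body value had 0, with 4 as deposited and 0 to 1 without one replicate (1 without DMSO 2). The flank value had 2, with 1 at equal peak numbers, 0 at 250 kb, 0 outside genes, 0 with peaks at or above the median value, 12933 as deposited and 0 to 6 without one replicate (6 without DMSO 2, 1 without DMSO 3, 0 without APH 2 or DMSO 1). Shared regions had 0, with 1 when centred and 0 to 3 without one replicate (3 without DMSO 2). Of the sums over the 8 loci, the log2 ratio of the body share was 0.07, with -0.42 at equal peak numbers (every APH sample lower) and 0.59 with peaks at or above the median value, and that of body over flank -0.04, with -0.40 (every APH sample lower) and 0.55. That of the relative body value was 0.21 and became -0.15 with peaks at or above the median value. That of the relative flank value was 0.00 and became 0.0858 without PCDH8. The cause of these changes was not tested. Body counts of 0 to 8 peaks per gene and the unknown depth limit what could be detected.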

Other observations

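Over the 6 samples, the share of all peaks held by the 8 loci moved most like that of KDM4E (Pearson r = 0.985), CCBE1 (0.985) and RGS7 (0.984), with their own flanks included. These were the highest of 17473 genes compared, of which 158 had an r above 0.9. The values are descriptions over 6 points that share the libraries and their totals, and KDM4E, CCBE1 and RGS7 lie on other chromosomes than the 8 genes.

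Peak numbers along the flanks are given in stretches of 100 kb. On the upstream side the first 100 kb held 10.3 ± 2.52 peaks in DMSO and 11 ± 1.0 in APH, and the stretch from 200 to 300 kb held 10.7 ± 1.15 and 10.7 ± 0.577 (SD, n = 3). From 300 to 400 kb upstream there were 7.33 ± 1.53 and 10.3 ± 1.53 peaks, or 2.33 ± 0.577 and 3 ± 1.0 without PCDH8 and PCDH19. From 100 to 200 kb downstream there were 4.67 ± 1.53 and 7.67 ± 1.53, and from 400 to 500 kb downstream 3.33 ± 0.577 and 3 ± 1.0. From 400 to 500 kb upstream there were 6, 6 and 5 peaks in DMSO and 10, 7 and 7 in APH. Without PCDH8 and PCDH19 these were 3, 3 and 2 against 7, 4 and 4. From 100 to 200 kb upstream there were 2, 2 and 2 against 3, 4 and 3. In these stretches alone, of the 10 of 100 kb, every APH sample lay above every DMSO sample when all 8 loci were counted. Without PCDH8 and PCDH19 the stretch from 100 to 200 kb upstream overlapped (1, 1 and 1 against 1, 2 and 1). The stretch from 100 to 200 kb downstream then separated (3, 3 and 1 against 4, 7 and 4). These numbers are not scaled to the total of peaks of each sample. The stretches were chosen after their values were seen, and no difference was tested.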
